A study of Mus musculus with 3 samples.

Results

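Actb and Gapdh, messenger RNAs often used as references in mouse expression studies, were examined in RNA-seq of ovulated oocytes from 3 litters. Actb was taken as bases 143664795 to 143668403 of chromosome 5 and Gapdh as bases 125111871 to 125115601 of chromosome 6, both in mm9 and both on the minus strand. These are 2 genes, and they held alignments in 8 of the 303433 windows of 1 kb that had any. The rule that sets them uses only their names and positions, no measured value, but members were chosen with earlier results of these data known. The females that gave the oocytes carried LSD1 FL/FL, the floxed alleles of the histone demethylase gene Kdm1a, and were ZP3::Cre negative, that is, without the transgene whose promoter drives Cre in growing oocytes. The strain background was mixed. They were superovulated, eggs were collected by E0.5, and total RNA was copied by single primer isothermal amplification before libraries were built. There is 1 library per litter and 1 group, so the data give levels, their shape along each gene and their spread between litters. How many females or eggs went into a library is not given in the sources used here.

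Beta-actin, the product of Actb, is the cytoplasmic actin of non-muscle cells. In oocytes, actin filaments hold the meiotic spindle at the cortex and drive the extrusion of the polar body. Glyceraldehyde-3-phosphate dehydrogenase, the product of Gapdh, oxidises glyceraldehyde 3-phosphate in glycolysis. Mouse oocytes live largely on pyruvate supplied by the cumulus cells around them and use little glucose themselves. Both genes have processed pseudogenes, intronless copies of the spliced messenger RNA that were reverse transcribed into other chromosomes. A short read from an exon can therefore match the gene and its copies equally well, and the genes differ widely in how many copies they have.

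The libraries held 31787887 to 35183199 alignments of 72 gapless bases, and 85.2% to 85.6% of them repeated a start position already counted in the same library. How many places the aligner reported for a read is not stated, and the tracks carry no strand. Sets of 3 neighbouring start positions holding 50 or more alignments over the litters numbered 665490, and 141015 of them occurred again elsewhere with identical counts in every litter. Intervals below cover counting error only, since amplified copies are not independent molecules. In bulk RNA, fewer cells and less RNA per cell cannot be told apart. The oocyte label was not checked against marker genes, as their mm9 positions were not used here.

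The sequences that bear on the results are a coding stretch of Gapdh exon 4 and copies of it, shown because most Gapdh exonic positions have such copies and few alignments. They are given 5′ to 3′ from the transcripts of GENCODE release M21 (GRCm38). The Gapdh stretch, bases 614 to 685 of its messenger RNA, is the coding stretch of 72 bases that the most other annotated genes, 50, hold without a mismatch. With up to 2 mismatches 115 hold it, and the most at any Gapdh position was 125. It is shown with a pseudogene on chromosome 4 that has 1 mismatch and another on chromosome 9 that has 2, and capitals mark the mismatched bases.
Gapdh: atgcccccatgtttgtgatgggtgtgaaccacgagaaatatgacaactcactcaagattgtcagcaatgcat
Gm11185: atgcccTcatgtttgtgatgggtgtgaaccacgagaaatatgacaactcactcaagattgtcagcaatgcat
3000002C10Rik: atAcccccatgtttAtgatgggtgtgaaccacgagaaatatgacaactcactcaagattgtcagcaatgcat
No alignment of any litter covered Gapdh exon 4, where this stretch lies.

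The first question was how abundant the transcripts were. Actb held 1287, 1341 and 687 alignments in litters 1, 2 and 3, or 36.6, 42.2 and 21.4 CPM (counts per 1000000 alignments of the library). The 95% Wilson intervals were 34.6 to 38.6, 40.0 to 44.5 and 19.9 to 23.1 CPM, so each litter lay outside the intervals of the others, with litter 3 lowest. Gapdh held 246, 216 and 137 alignments, or 6.99, 6.80 and 4.28 CPM. Its intervals of 6.17 to 7.92 and 5.95 to 7.76 in litters 1 and 2 overlapped, and that of litter 3, at 3.62 to 5.06, lay below both. Alignments that repeated a start position made up 63.6%, 65.2% and 51.1% of Actb and 72.4%, 74.1% and 67.2% of Gapdh, below the share of the whole libraries. In RPKM, that is per kilobase of exon on the same scale (summed depth over exons divided by 72), Actb stood at 17.7 ± 5.67 and Gapdh at 4.86 ± 1.20 (SD, n = 3). By the mean of 1 kb windows, the highest Actb window (143666001 to 143667000) ranked 8992 among the 303433, at 12.5 CPM.

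Coverage followed the annotated exons of Actb. Exon and intron lengths were taken from GENCODE M21 and counted from the 3' end of the interval, so borders are known only to within a few bases. Mean intronic depth in Actb was 0.0465, 0.0366 and 0.0151 alignments in litters 1, 2 and 3, against a mean exonic depth of 49.0, 51.1 and 26.2. The introns thus had 0.0949%, 0.0717% and 0.0578% of the exonic depth. No Actb alignment lay wholly in an intron, and none reached more than 10 bases into one. Of 3315 alignments, 3264 lay whole in 1 exon and 51 crossed a border by up to 10 bases. Over the 1720 intronic bases, 22, 16 and 9 were covered in litters 1, 2 and 3.

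In Gapdh the exonic coverage was nearly all in exon 7, the last one. Mean intronic depth was 0.125 in litter 1 and 0 in litters 2 and 3, against a mean exonic depth of 14.1, 12.6 and 8.01. The intronic depth of litter 1 came from 9 alignments that crossed an exon border, 7 of them by over 10 bases, and no alignment lay wholly in an intron. Exon 7 (248 bases, of which 70 are coding) held 95.2%, 96.8% and 98.5% of the exonic depth in litters 1, 2 and 3. Its level was 26.4, 26.5 and 17.0 RPKM (23.3 ± 5.45, SD, n = 3), with litter 3 lowest. Exon 3 (298 bases) stood at 0.760, 0.739 and 0 RPKM, exon 5 (231 bases) at 0, 0 and 0.270 RPKM, and exon 6 (182 bases) at 0.575, 0 and 0 RPKM. Exon 4 (198 bases) was at 0 in every litter, and a count of 0 allows up to 3 alignments per library. Exons 1 and 2, with 33 and 41 bases in the interval, are shorter than an alignment and were also at 0. A share of 23.8%, 17.2% and 16.7% of the exonic bases of Gapdh was covered, against 87.8%, 82.1% and 91.8% in Actb.

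**Figure D1:**
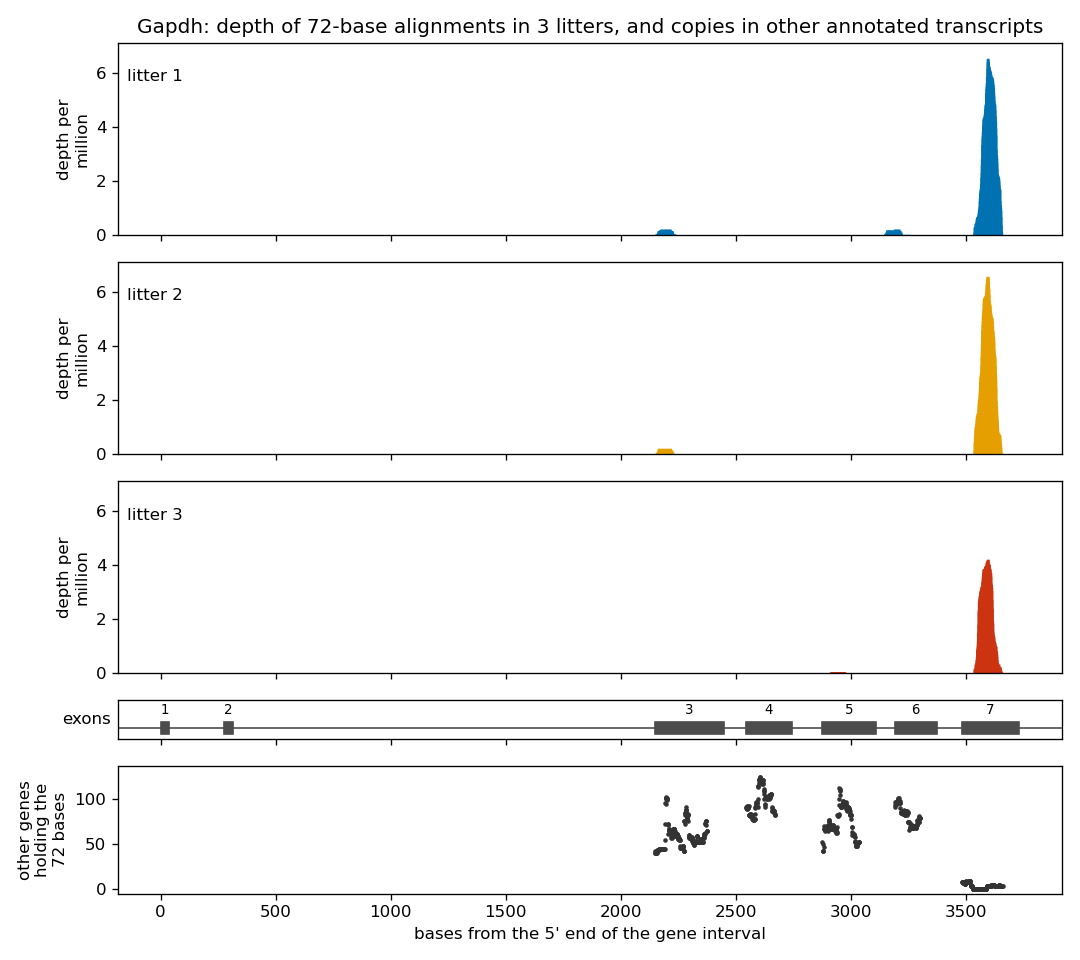
Depth per 1000000 alignments along the Gapdh interval (x axis, bases from its 5' end) in each litter, the placed exons as boxes, and, at the bottom, the number of other annotated genes that hold the 72 bases starting at each exonic position with up to 2 mismatches. In each litter the depth stands in exon 7, where that number falls to 0, and exons 3 to 6, where it is high, are nearly empty.

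The covered part of Gapdh coincided with the part of the messenger RNA that other transcripts do not hold. Across the other genes annotated in GENCODE M21, 121 share at least 72 bases with a Gapdh exon without a mismatch and 249 with up to 2 mismatches, 239 of these being pseudogenes. For Actb the numbers were 4 and 16, with 13 pseudogenes. Of the 802 positions at which 72 bases fit into a Gapdh exon in the interval, 65 were held by no other gene without a mismatch, all of them in exon 7, at bases 1217 to 1281 of the messenger RNA. Alignments in exon 7 started at bases 1219 to 1280, on 62 of these 65 positions, and they were 574 of the 590 alignments that lay whole in a Gapdh exon. The 118 positions held by 1 to 9 other genes had 0 alignments, and the 619 positions held by 10 or more had 16.

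The same start counts also stood at other places of the genome. All 62 start positions, with their 574 alignments, recurred with identical counts in all 3 litters at 3 other places in mm9. These lie in the windows at 28789001 to 28790000 on chromosome 2, 96291001 to 96292000 on chromosome 5 and 20234001 to 20235000 on chromosome 11. In litters 1, 2 and 3 these positions held 93.5%, 96.8% and 98.5% of all Gapdh alignments, namely 230 of 246, 209 of 216 and 135 of 137. Being held by no other annotated transcript therefore does not make them unique in the genome. Without these positions, 16, 7 and 2 alignments were left in Gapdh. From these tracks, the Gapdh gene and the 3 other places cannot be told apart as the source of the RNA.

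In Actb most positions had no such copy. The 72 bases of 1446 of its 1463 exonic positions were held by no other gene without a mismatch, and these had 3168 of the 3264 alignments that lay whole in an exon. With up to 2 mismatches allowed, 1034 positions were held by no other gene, with 0.814, 0.789 and 0.466 alignments per position in litters 1, 2 and 3. The 426 positions held by 1 to 9 other genes had 0.913, 1.12 and 0.432, more than the uncopied ones in litters 1 and 2 and fewer in litter 3. The 3 positions held by 10 or more genes, all in exon 3, had 33, 33 and 10 alignments. Recurrence could be tested only in runs of enough alignments, which held 34.8%, 40.0% and 11.4% of Actb in litters 1, 2 and 3. Of these, 5 start positions lay in runs that recurred elsewhere with identical counts, with 54, 68 and 19 alignments, or 4.20%, 5.07% and 2.77% of all Actb alignments in litters 1, 2 and 3. They recurred on chromosome 8 (126417001 to 126418000) and chromosome 7 (5080001 to 5081000), where 13 and 10 Actb positions, with 158 and 151 of the 3315 alignments, had identical counts at the same spacing.

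The profile along Actb was uneven and differed between litters. Exon 3 (240 coding bases) stood at 53.4, 77.3 and 18.7 RPKM in litters 1, 2 and 3 (49.8 ± 29.4, SD, n = 3). Exon 6 (827 bases, the last exon, with the end of the coding sequence and the 3' UTR) stood at 20.6, 18.8 and 18.1 RPKM (19.2 ± 1.31). The level of exon 3 thus differed by 4.13-fold between the highest and the lowest litter, and that of exon 6 by 1.14-fold.

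The exons between them were lower. Gapless alignments leave out reads that span an exon junction, which lowers the level per base, more so in short exons. In exon 5, 111 start positions fit into 182 bases, and in exon 6, 756 fit into 827. Exon 4 (439 bases) stood at 12.9, 15.3 and 2.13 RPKM, a 7.18-fold difference, and exon 5 (182 bases) at 4.94, 7.38 and 2.22 RPKM, a 3.32-fold difference. Litter 3 was the lowest in exons 3, 4, 5 and 6, but in exon 6 by little. At the 5' end it was the highest, with 2.06 RPKM in exon 1 and 3.87 RPKM in exon 2, against 0 and 0.881 in litter 1 and 0 in both exons in litter 2. Exon 1 has 72 bases in the interval, so 1 start position alone fits into it, and it had 0 alignments; the depth there came from alignments that crossed its border.

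The lower coverage of exons 3 and 4 in litter 3 was seen at copied and uncopied positions, though not to the same degree. Uncopied means held by no other annotated transcript, which does not make a position unique in the genome. Exon 3 positions held by no other gene with up to 2 mismatches had 261, 313 and 50 alignments in litters 1, 2 and 3, and those held by another gene 180, 267 and 91. These are totals over unequal numbers of positions, since 55 of the 169 start positions of exon 3 were copied. In exon 4, where 233 of 368 were copied, the uncopied positions had 53, 49 and 5 alignments, and the copied ones 142, 163 and 25. Per position, the copied ones had more alignments than the uncopied ones in each litter, in both exons.

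**Figure D2:**
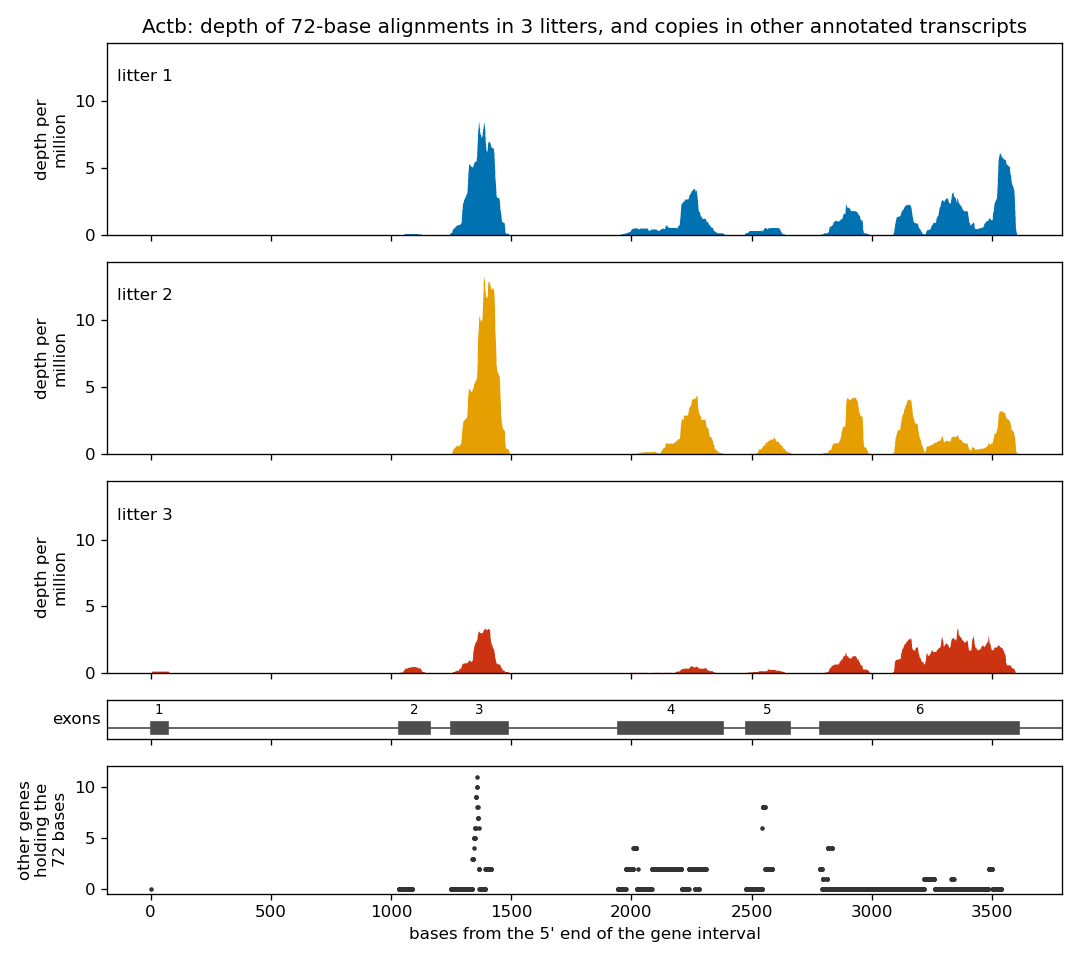
Depth per 1000000 alignments along the Actb interval (x axis, bases from its 5' end) in each litter, the placed exons as boxes, and the number of other annotated genes that hold the 72 bases starting at each exonic position with up to 2 mismatches. Exon 3 carries the highest peak in litters 1 and 2, and litter 3 has most of its depth in exon 6.

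The balance of the 3' to the 5' end of the spliced Actb exons accordingly turned between litters. Mean depth was 47.4, 40.7 and 37.3 over the 3' 50% of exonic bases in litters 1, 2 and 3, against 50.7, 61.5 and 15.1 over the 5' 50%. The ratio was 0.936, 0.661 and 2.47, above 1 in litter 3 and below it in litters 1 and 2. The mean of 1.35 ± 0.973 (SD, n = 3) rests on litter 3, and without it the mean was 0.798. With the exonic bases cut into 10 equal parts, part 2 from the 5' end held 30.1%, 34.9% and 18.6% of the depth, and part 9 held 13.6%, 5.91% and 27.0%. Part 1 held 0.311%, 0% and 3.00%, but it lies in exons 1 and 2, into which only 1 and 58 start positions fit. Within exon 6, mean depth was 37.8, 51.7 and 23.5 alignments over the coding part and 55.3, 41.2 and 45.5 over the 3' UTR, so the 3' UTR was the deeper part in litters 1 and 3.

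In Gapdh the 3' 50% held the depth in every litter. It had 27.4, 24.5 and 16.0 alignments of mean depth in litters 1, 2 and 3, against 0.933, 0.820 and 0.0472 in the 5' 50%. The ratio was 29.3, 29.9 and 339.1, highest in litter 3, whose 5' depth was lowest. That value divides by a depth near the floor, since litter 3 had only 2 Gapdh alignments outside the 62 shared positions. It is not read as a difference between litters. This is the position of the stretch that other transcripts do not hold, so it gives no profile of the whole messenger RNA. Within exon 7, the 3' UTR stood at 35.7, 34.6 and 21.8 RPKM and the coding part at 2.72, 5.96 and 4.76 RPKM.

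**Figure D3:**
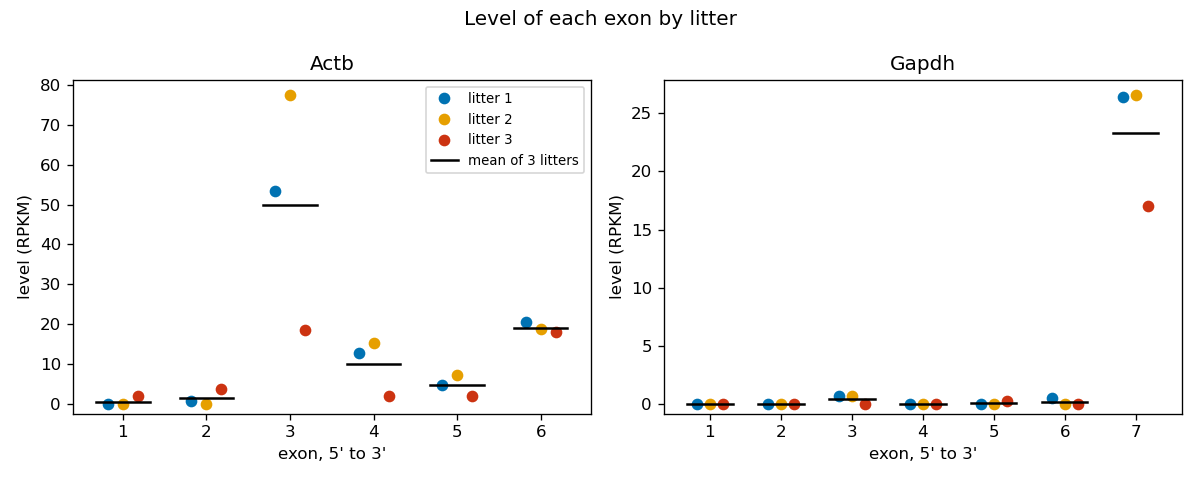
Level of each exon (y axis, RPKM) by exon number from 5' to 3' (x axis), with 1 point per litter and a bar at the mean of the 3 litters. In Actb the litters lie close together in exon 6 and far apart in exons 3 and 4; in Gapdh, exon 7 carries the level.

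The ratio of Actb to Gapdh needs no scaling to library size. Over all exonic bases, the ratio of mean depth was 3.47, 4.04 and 3.27 in litters 1, 2 and 3 (3.59 ± 0.403, SD, n = 3). In alignments, Actb made up 84.0% (95% Wilson interval 82.0 to 85.7), 86.1% (84.3 to 87.8) and 83.4% (80.7 to 85.8) of the sum of both genes. The 3 intervals overlap, but they cover counting error only, and a difference of the ratio between litters was not tested. Between the highest and the lowest litter the ratio differed by 1.24-fold, against 1.97-fold for the level of Actb and 1.61-fold for that of Gapdh. Over all exonic bases both genes were lowest in litter 3, and the ratio moved less than either gene. This did not hold for every choice of positions given below.

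Which gene was higher depended on the positions counted. At positions held by no other annotated gene with up to 2 mismatches, Actb had 0.814, 0.789 and 0.466 alignments per start position (1034 positions) and Gapdh 3.75, 3.43 and 2.21 (61 positions). The ratio was then 0.217, 0.230 and 0.211 (0.219 ± 0.0101, SD, n = 3), below 1 in each litter. These Gapdh positions, 61 of 802, held 573 of the 590 alignments whole in an exon. Those of Actb, 1034 of 1463, held 2140 of 3264. The choice thus leaves out mostly empty Gapdh positions, which lowers the ratio by construction. Restricted to the last exon of each gene, positions held by no other gene gave 0.209, 0.194 and 0.280. At the same distance from the 3' end as these Gapdh positions, Actb had 0.525, 0.262 and 1.02 alignments per position, a ratio of 0.140, 0.0766 and 0.459. Litter 3 thus had the highest ratio at uncopied positions of the last exons and at this distance. It had the lowest over all exonic bases and over all uncopied positions. The mean depth of the whole last exons gave 0.852 as the mean of the 3 litters, which did not all lie below 1. Actb exon 6 was below Gapdh exon 7 in litters 1 and 2, at 20.6 against 26.4 and 18.8 against 26.5 RPKM. In litter 3 it was above, at 18.1 against 17.0. The uncopied Gapdh positions are among those with identical counts at 3 other places, and leaving those positions out of Gapdh gave a mean ratio of 140.1. That mean divides by a depth near the floor, since 16, 7 and 2 Gapdh alignments were left in litters 1, 2 and 3. These choices of positions, other than the last exon, were made after the data were seen.

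**Figure D4:**
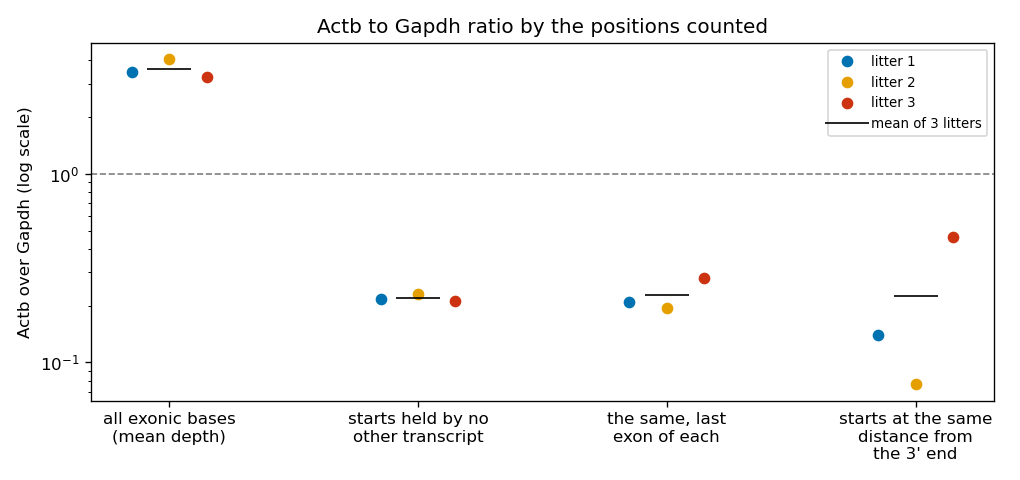
Ratio of Actb to Gapdh (y axis, log scale) by the positions counted, with 1 point per litter and a bar at the mean of the 3 litters; the dashed line marks equal levels. Over all exonic bases the points lie between 3.27 and 4.04, and for the other 3 choices between 0.0766 and 0.459.

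The spread of both genes between litters was set against that of the genome. Of the 10913 windows of 1 kb that averaged 10 CPM or more, 5943 (54.5%) differed over 2-fold between the highest and the lowest litter and 1903 (17.4%) over 4-fold, with a median of 2.12-fold. These counts rest on litter 3: without it 942 windows differed over 2-fold, against 5193 without litter 1 and 4523 without litter 2. Over all exons, Actb differed by 1.97-fold and Gapdh by 1.61-fold, values below the median of such windows over the 3 litters. The measures are unlike, since these are averages over all exons of a gene and the median is over single windows. No Gapdh window averaged 10 CPM or more, the highest being at 8.39 CPM. Of the Actb windows, 2 reached this level, and 1 of them differed over 2-fold and also over 4-fold, against those shares of 54.5% and 17.4%. It was the one at 143666001 to 143667000 that holds all of exon 4 and part of exon 3, with 12.8, 20.2 and 4.40 CPM in litters 1, 2 and 3. Averaging 1 CPM or more, 69.4% of 52367 windows differed over 2-fold and 35.1% over 4-fold, against 2 and 1 of the 5 Actb and Gapdh windows at that level. These windows are too few to read more from their count. The 1 Gapdh window at that level also holds alignments from beyond the 3' end of the gene.

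**Figure D5:**
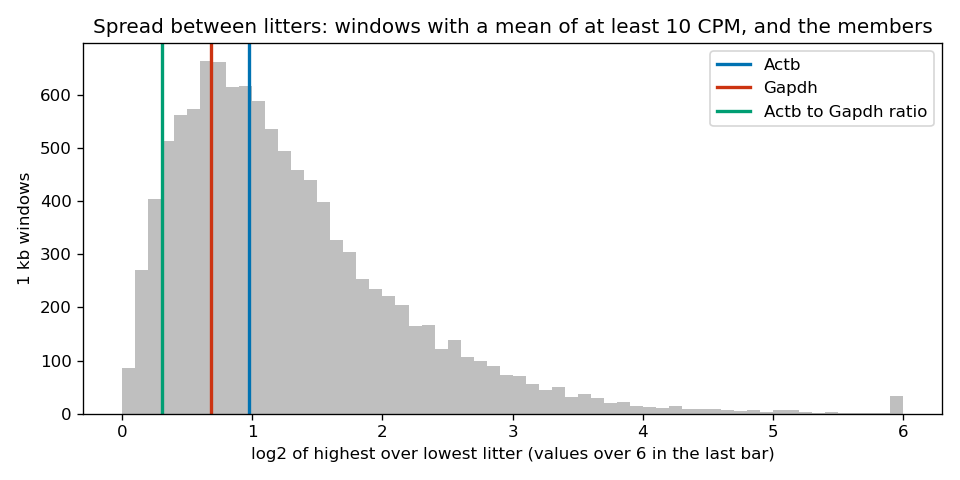
Number of 1 kb windows (y axis) by the log2 of the highest over the lowest litter (x axis), for windows that averaged 10 CPM or more, with lines at the values of Actb, of Gapdh and of their ratio. The lines stand at 1.97-fold, 1.61-fold and 1.24-fold, all in the left part of the distribution. They are not single-window values: those of Actb and Gapdh are averages over all exons. The last is a ratio of the 2 genes, and no ratios between windows were computed to set it against.

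As a reference for scaling, either gene would have moved litter 3. Scale factors as multiples of the litters' geometric mean were 1.07, 0.964 and 0.972 from total alignments, and 1.05, 0.992 and 0.958 from the median of ratios over windows. From the Actb exons they were 1.22, 1.27 and 0.649, and from the Gapdh exons 1.25, 1.12 and 0.711. Scaled by Actb, the median of 10900 windows in litter 3 was 0.96 on the log2 scale above the mean of litters 1 and 2, and scaled by Gapdh 0.77 above it. Scaled by total alignments it was 0.09 above. Scaled by exon 6 of Actb alone it was 0.21 above, so the Actb figure depends on the exons used. The Gapdh figure rests on the 62 positions whose counts are identical at 3 other places. In litters 1, 2 and 3 they held 93.5%, 96.8% and 98.5% of all Gapdh alignments.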

How the data were processed

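The authors deposited 1 coverage track per library, a signal of alignment depth over each interval, not scaled to library size. Reads were aligned with Bowtie to mm9, per the submitters' processing notes; the sources used here give neither its version nor its filters nor the number of placements per read. Each track was made from 1 sorted alignment file, per the file headers.

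Isolated blocks at depth 1 were multiples of 72 bases long, so alignments were taken as 72 gapless bases and start counts were recovered from the steps in depth, with 0 negative values. The computation was tested on simulated data. Exons are those of ENSMUST00000100497.10 (Actb, gene ENSMUSG00000029580.14) and ENSMUST00000118875.7 (Gapdh, gene ENSMUSG00000057666.18), GENCODE M21 on GRCm38. Their lengths were counted from the 3' end of the mm9 interval and cut at its 5' end; no coordinate was converted. Of 201 placements up to 100 bases away, 7 gave Actb as much contrast of exonic over intronic depth. For Gapdh 97 did, so contrast does not fix its placement. Only 4, at shifts of -2 to 1 bases, put as many alignments on positions that no other transcript holds. That match is itself a result given above, so it is not independent support for the placement. The plan was to take exons from the depth itself if gene lengths differed between annotation and interval, which they did. That would select covered bases, so it is given as an alternative.

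Copies were sought in all GENCODE M21 transcripts on both strands with 24-base seeds and up to 2 mismatches. Recurring starts are runs of 3 neighbouring positions with at least 50 alignments and identical counts and spacing elsewhere in either direction. Members, lists and settings were chosen with earlier results of these data known. Only the 2 members are described; other reference and glycolysis genes were not analysed here, for want of mm9 positions. No test over litters was run, because an exact two-sided test that flips signs over 3 litters can reach no p below 0.25. Software was Python 3.11.15, numpy 2.4.6, pandas 2.3.3 and statsmodels 0.14.6.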

Additional observations from a re-analysis of the deposited data

Results flagged for a closer look

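A signal stood just outside Gapdh, in data that the comparisons above do not use. The 1 kb beyond the 3' end of the interval held 63, 29 and 168 alignments in litters 1, 2 and 3, or 1.79, 0.912 and 5.25 CPM, above the 3 that a count of 0 allows. In litter 3 these outnumbered the 137 alignments of Gapdh itself, which was lowest there. They covered 504, 420 and 627 of the bases. The next gene on that side is Iffo1 in the order of RefSeq (GRCm38.p6), and whether the reads come from it was not tested. The 1 kb beyond the 5' end of Gapdh and the 3' end of Actb held 0 alignments in each litter, and that beyond the 5' end of Actb held 0, 0 and 1.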

How the results depend on the processing

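Under 42 of 68 alternatives a value moved by less than 1 SD of the litters, or the count of windows by less than 1.5 times. Leaving out a litter moves a mean little by construction. Scaling to alignments outside the 100 highest windows, mitochondrial and unplaced sequence gave 28.4 RPKM for Actb and 7.79 for Gapdh, against 17.7 and 4.86. Each start counted once gave 46.7 and 9.37 RPKM, a ratio of 4.98, and an Actb intron to exon ratio of 0.00105, against 0.000748. Exons taken from the depth gave Gapdh 14.4 RPKM, the ratio 1.43 and an Actb intron to exon ratio of 0.00412. Bases at least 72 from exon ends gave Gapdh 12.4 RPKM, the ratio 1.85 and a Gapdh 3' to 5' ratio of 323.0, against 132.7. Without positions in recurring runs Gapdh stood at 3.33 RPKM and the ratio at 5.07. The ratio was 5.51 in total alignments and turned to a mean of 0.852 in the last exons, though it stayed above 1 in litter 3. Chosen after seeing the data, positions held by no other transcript gave Gapdh 94.5 RPKM and turned the ratio to 0.219, the same distance from the 3' end turned it to 0.225, Actb without exon 3 gave 2.71, and Gapdh without the positions identical at 3 other places gave 0.166 RPKM and a ratio of 140.1. Beyond the alternatives' construction, the cause was not tested. Windows over the fold limit numbered 1903 at 4-fold, 36363 from a mean of 1 CPM, and 942 to 5193 with a litter left out, the lowest without litter 3. Leaving out a litter gave an Actb 3' to 5' ratio of 0.798 to 1.70, below 1 without litter 3, and a Gapdh 3' to 5' ratio of 29.6 to 184.5, lowest without litter 3, with an SD over the 3 litters of 178.7, above the mean. With so wide an SD, a Gapdh 3' to 5' ratio of 42.1 with each start counted once also counted as a move of less than 1 SD. So did 39.5 with exons taken from the depth. The other levels and ratios moved by less than 1 SD. Depth over the end regions of Gapdh in a 3-part split gave no ratio, since a litter had 0 at the 5' end. No paired analysis was possible because there is only 1 group. Depth limits Gapdh outside its 62 shared positions, with 25 alignments in all.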
